A study of Mus musculus with 3 samples.

Results

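Platelets of mouse blood were taken as the barcodes of cluster 6 in each of 2 deposited blood tables, 162 barcodes in the table of metastasis-bearing mice and 66 in the table of naive mice. Together they made up 228 of 16328 deposited cells, of which 11120 were blood cells. A barcode stands for 1 droplet of the droplet-based single-cell RNA assay, which counts molecules as unique molecular identifiers (UMIs). The clusters were the authors' own, and they were called platelets from the genes Ppbp, Pf4, Gp9, Itga2b and Nrgn. The study set blood and brain immune cells of mice with brain metastases beside those of mice without, and beside mice lacking the chemokine receptors Cx3cr1 or Ccr2.

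All mice were females of 2 to 3 months on a C57Bl/6 background. Blood of metastasis-bearing Hom and metastasis-bearing Het mice was drawn about 2 weeks after tumour cells of the mouse mammary line E0771 were given through the carotid artery. Blood of naive Hom and naive Het mice came from animals without metastases. Across the series the genotypes were Cx3cr1-/- and CCR2-/- with their heterozygotes, but the blood labels give only Hom and Het and do not name the gene. Blood of all 4 groups was drawn from the heart into heparin, its red cells were lysed, and each sample was stained with 35 antibodies and with its own barcoded antibody (hashtag). The 8 hashed samples, brain included, were then loaded as 1 pool. Each blood group was therefore 1 hashed sample. No test between groups was possible, and the 95% intervals given below (exact Poisson for UMIs, exact Clopper-Pearson for shares) cover counting error only.

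Platelets are fragments shed into blood by megakaryocytes of the bone marrow. They have no nucleus, carry a store of megakaryocyte mRNA that declines with their age, stop bleeding by sticking to injured vessel walls and to each other, and release granules filled with chemokines, growth factors and clotting proteins. They also bind to neutrophils and monocytes in blood, and in mice with tumours they are known to coat circulating tumour cells.

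The promoters of 4 of the 15 genes with the largest excess in platelet barcodes are shown. Each window runs from 250 bases before the annotated start site to 50 bases after it. Sequences are given in the direction in which the RNA is read (RefSeq, build GRCm38.p6). Ppbp and Pf4 encode granule chemokines and lie next to each other on chromosome 5, Itga2b encodes the integrin subunit CD41, and Ctla2a was the gene with the largest excess in platelet barcodes. The windows are chr5:90768268-90768567 on the plus strand for Ppbp, chr5:90772185-90772484 on the plus strand for Pf4, chr11:102469834-102470133 on the minus strand for Itga2b, and chr13:60936576-60936875 on the minus strand for Ctla2a. Capitals mark matches, on either strand, to the letters AGATAA (bound by GATA factors), ACCGGAAG or CAGGAAG (ETS factors) and TGAGTCA (NFE2).
Ppbp: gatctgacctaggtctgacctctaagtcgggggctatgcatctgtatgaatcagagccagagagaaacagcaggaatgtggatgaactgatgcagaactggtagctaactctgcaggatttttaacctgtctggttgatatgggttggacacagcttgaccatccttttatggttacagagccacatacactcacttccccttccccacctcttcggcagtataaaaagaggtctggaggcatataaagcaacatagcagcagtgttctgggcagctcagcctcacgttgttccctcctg
Pf4: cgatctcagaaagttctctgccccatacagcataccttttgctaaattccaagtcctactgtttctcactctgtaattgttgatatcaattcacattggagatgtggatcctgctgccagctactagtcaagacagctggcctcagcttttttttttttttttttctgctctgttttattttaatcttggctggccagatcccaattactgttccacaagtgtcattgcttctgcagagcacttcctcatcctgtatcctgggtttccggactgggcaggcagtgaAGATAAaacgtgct
Itga2b: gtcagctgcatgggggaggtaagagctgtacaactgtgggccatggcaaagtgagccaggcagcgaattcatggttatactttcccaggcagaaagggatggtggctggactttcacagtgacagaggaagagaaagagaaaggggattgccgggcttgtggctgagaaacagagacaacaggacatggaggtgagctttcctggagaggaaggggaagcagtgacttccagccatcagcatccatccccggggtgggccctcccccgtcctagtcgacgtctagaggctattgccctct
Ctla2a: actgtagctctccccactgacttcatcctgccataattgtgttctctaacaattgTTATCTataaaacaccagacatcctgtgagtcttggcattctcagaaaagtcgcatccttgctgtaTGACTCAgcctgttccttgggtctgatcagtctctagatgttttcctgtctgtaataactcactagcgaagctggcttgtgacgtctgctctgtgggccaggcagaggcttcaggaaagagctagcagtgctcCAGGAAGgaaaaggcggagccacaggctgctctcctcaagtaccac

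The Pf4 window held AGATAA beginning 36 bases after the start site. The Ctla2a window held TTATCT, the other strand of AGATAA, 195 bases before the start site, TGACTCA, the other strand of TGAGTCA, 129 bases before it, and CAGGAAG 4 bases after it. Of 19 platelet genes looked for (10 platelet markers and the 15 genes highest in platelets, which overlap), 17 had a promoter in the table. AGATAA stood in 4 of the 17 (23.5%: Pf4, Gp5, Clec1b and Ctla2a), against 11.4% of all 27025 promoters, taken as 1 window a gene. ACCGGAAG stood in 0 of 17 (all promoters 2.34%), CAGGAAG in 1 (5.88%, all promoters 12.96%) and TGAGTCA in 1 (5.88%, all promoters 5.17%). The matches are descriptions of letters and not of binding.

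The label held for the naive cluster and for part of the metastasis-bearing cluster. Each barcode was scored by how many of 10 platelet markers (Ppbp, Pf4, Gp9, Itga2b, Nrgn, Gp1bb, Gp5, Tubb1, Treml1, Clec1b) had a UMI. In the metastasis-bearing cluster 63 of 162 barcodes had at least 3 markers and 89 had none, while all 66 naive barcodes had between 4 and 9. The 5 metastasis-bearing barcodes just inside the limit had 3 markers, and the 4 just outside it had 2. The 129 barcodes with at least 3 markers are called platelet barcodes below. That limit was set after the values had been seen, and it also fixes the sign of any marker's excess.

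The other 99 metastasis-bearing barcodes were not platelets by these markers, and no other cell name is given to them. They held 0 UMIs of Itga2b, Gp1bb, Gp5, Tubb1 and Treml1, and 8 UMIs of Pf4 in all. Their median depth was 4378 UMIs, against 853 UMIs for the 63 platelet barcodes of the same table. Malat1, a long RNA retained in the nucleus, reached 740 UMIs per 10000 in them, and 98 of the 99 had at least 20 Malat1 UMIs. Tmx4, Fosb, Skil, Egr1 and Ccnl1 were the genes with the largest excess over other blood cells. Of the 99 barcodes, 89 also stood in another of the 3 deposited tables (85 in the brain table), and 76 carried at least 3 markers of a leukocyte lineage.

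**Figure D1:**
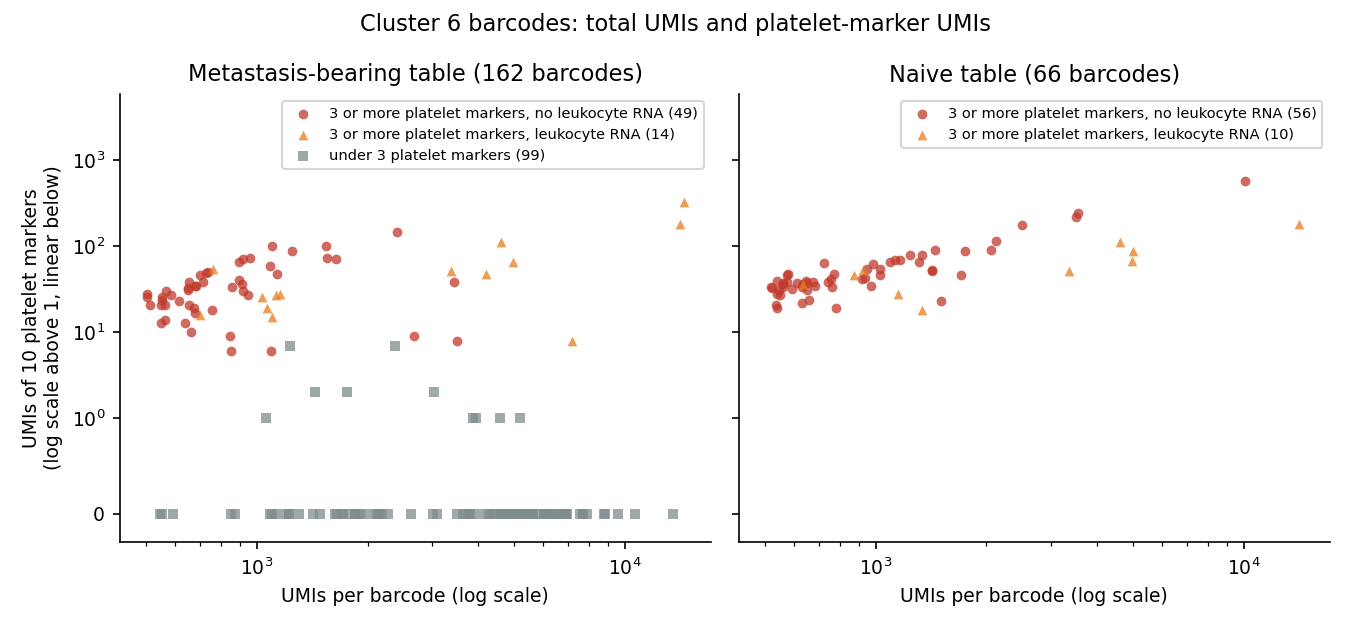
UMIs of the 10 platelet markers (vertical axis, log scale above 1) against all UMIs of the barcode (horizontal axis, log scale) for the 162 metastasis-bearing and 66 naive barcodes of cluster 6. Of the 99 metastasis-bearing barcodes with under 3 platelet markers (squares), 89 lie at 0, while every naive barcode has at least 18 marker UMIs, and the barcodes with leukocyte RNA (triangles) lie mostly at higher depth.

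Barcodes that stood in more than 1 table limit what can be said by group. Of the members, 109 of 162 in the metastasis-bearing table and 13 of 66 in the naive table had a barcode found in another table, and 8 stood in cluster 6 of both blood tables. For comparisons between groups only clear barcodes were used, those in 1 table with at least 50% of their hashtag counts from that table. This left 42 metastasis-bearing platelet barcodes (8 Hom, 34 Het) and 51 naive platelet barcodes (22 Hom, 29 Het).

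Leukocyte RNA accompanied a minority of platelet barcodes. At least 3 markers of a neutrophil, monocyte, B cell or T and NK cell list were found in 14 of 63 metastasis-bearing platelet barcodes (22.2%, interval 12.7 to 34.5) and in 10 of 66 naive ones (15.2%, 7.51 to 26.1). These counts share droplets, as 8 platelet barcodes stood in both tables, which leaves 121 different ones of 129, and 5 of the 8 carried leukocyte RNA in both. Without the 8, the counts were 9 of 55 in the metastasis-bearing table (16.4%, 7.77 to 28.8) and 5 of 58 in the naive table (8.62%, 2.86 to 18.98). B cell RNA stood in 8 metastasis-bearing and 5 naive barcodes, neutrophil RNA in 5 and 5, monocyte RNA in 2 and 1, and T or NK cell RNA in 2 and 1. More than 1 lineage was found in 3 metastasis-bearing and 2 naive barcodes. Over the whole metastasis-bearing cluster, barcodes with under 3 platelet markers included, 90 of 162 carried leukocyte RNA.

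Depth and barcode sharing moved with that count. Platelet barcodes with leukocyte RNA had a median of 2256.5 UMIs in the metastasis-bearing table and 2350 in the naive table, whereas those without had 728 and 757.5. Thinned to 500 UMIs, the share was 12.7% (8 of 63) in metastasis-bearing and 7.58% (5 of 66) in naive platelet barcodes. Among clear barcodes it was 5 of 42 in metastasis-bearing and 2 of 51 in naive platelets. By group these were 0 of 8 metastasis-bearing Hom barcodes, which allows a share of up to 36.9%, 5 of 34 metastasis-bearing Het, 2 of 22 naive Hom and 0 of 29 naive Het (up to 11.9%). As a background for free RNA, B cell markers passed the same limit in 161 of 2060 metastasis-bearing and 236 of 1640 naive neutrophil barcodes (7.82% and 14.4%, at median depths of 3220 and 3146 UMIs), beside 12.7% and 7.58% of platelet barcodes. Among barcodes of up to 1500 UMIs, B cell RNA stood in 5 of 49 metastasis-bearing platelet barcodes (10.2%) and 7 of 134 neutrophil barcodes (5.22%), and in 4 of 52 naive platelet barcodes (7.69%) and 6 of 111 neutrophil barcodes (5.41%), with overlapping intervals. Neutrophil markers passed the limit in 5 of 63 metastasis-bearing platelet barcodes (7.94%) beside 107 of 1224 B cell barcodes (8.74%). In the naive table they did in 5 of 66 platelet barcodes (7.58%, interval 2.51 to 16.8) beside 35 of 1504 B cell barcodes (2.33%). B cell median depths were 4548 and 4894 UMIs. Monocytes had 232 of 1118 and 137 of 624 (20.75% and 21.96%), at median depths of 14270 and 12953.5 UMIs. T or NK cells had 40 of 513 and 36 of 653 (7.797% and 5.51%). Up to 1500 UMIs, neutrophil RNA stood in 2 of 49 metastasis-bearing (4.08%) and 1 of 52 naive platelet barcodes (1.92%). B cell barcodes of that depth were 2 and 6, too few to compare. Whether leukocyte RNA came from bound cells, from 2 cells in 1 droplet or from free RNA was not tested.

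The 5 defining markers made up more of the RNA of platelet barcodes than of other cells in both tables. Platelet levels set against other cells pool barcodes with and without leukocyte RNA, unless stated. Those without it held 48226 of 108124 UMIs in the metastasis-bearing table and 66483 of 103478 in the naive table. In them the 10 platelet markers summed to 388 and 545 per 10000, against 264 and 416 in all platelet barcodes. Pf4, platelet factor 4, had 85.5 UMIs per 10000 in metastasis-bearing platelet barcodes (interval 80.04 to 91.2) against 1.22 in the other cells of that table, and 129 (122 to 136) in naive platelet barcodes against 1.44. Every platelet barcode of both tables had a Pf4 UMI. Nrgn, neurogranin, a calmodulin-binding protein best known from neurons, had 77.3 against 0.14 per 10000 in the metastasis-bearing table and 140 against 0.20 in the naive table. Ppbp, the precursor of the neutrophil attractant NAP-2, had 31.4 against 0.04 and 53.3 against 0.06. Itga2b had 21.2 against 0.03 and 25.8 against 0.03 per 10000, and Gp9, a subunit of the von Willebrand factor receptor, had 19.2 against 0.04 and 19.5 against 0.05.

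Pf4 RNA was not limited to platelets. Platelet barcodes held 924 Pf4 UMIs, 14.9% of those in the metastasis-bearing table, and 1335, 20.1% of those in the naive table, while they held between 52.9% and 70.6% of the UMIs of Ppbp, Gp9, Itga2b and Nrgn. Most Pf4 UMIs lay in an unnamed cluster of each table whose leading genes include Prg4, lubricin, and Saa3, an acute-phase protein. In the metastasis-bearing table that cluster of 397 cells held 4202 Pf4 UMIs (67.6%), found in 60 cells with up to 563 each, or 27.8 per 10000. In the naive table it was 31 cells with 4170 Pf4 UMIs (62.7%), or 53.4 per 10000. Averaged over each of the 4 named leukocyte types, the highest Pf4 level was 0.30 per 10000, in metastasis-bearing neutrophils, and the highest Nrgn level 0.26, in the same cells. Since the clusters were built from these genes, the differences between platelets and other cells are descriptions, with no test.

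**Figure D2:**
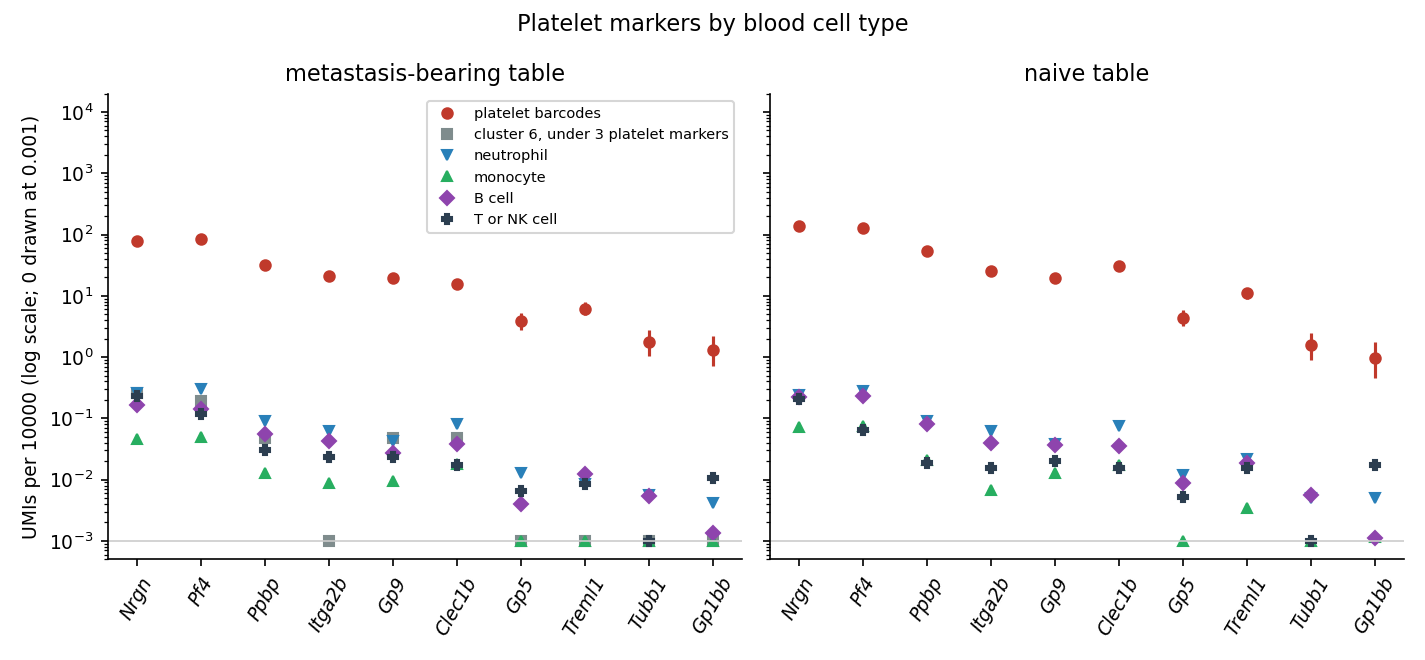
Level of the 10 platelet markers (UMIs per 10000, log scale, bars are exact 95% Poisson intervals for platelet barcodes) in platelet barcodes, in the metastasis-bearing barcodes of cluster 6 with under 3 platelet markers, and in 4 leukocyte types of each blood table. For every marker the platelet barcodes lie above all leukocyte types, and the barcodes with under 3 markers lie near the leukocytes or at 0.

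Over all genes, 225 had at least 50 UMIs in platelet barcodes of both tables. Of these, 89 were at least 2-fold higher in platelets than in other blood cells in both tables, 23 were at least 2-fold lower, and 11 were at least 16-fold higher. The largest log2 excess (metastasis-bearing table, then naive table, with 1 UMI per 10000 added to each side) belonged to Ctla2a, a small cysteine protease inhibitor, at 6.87 and 7.41. It was followed by Nrgn (6.10 and 6.88), Gng11, a G protein gamma subunit (6.03 and 6.70), Pf4 (5.29 and 5.74), Ppbp (4.97 and 5.68) and Tsc22d1, a leucine zipper protein (5.02 and 5.48). Then came 1810058I24Rik, Cd9, Itga2b, Clec1b, Gp9, Myl9, Lsm12, Ywhah and Alox12, with means over both tables between 4.99 and 3.74. Tmsb4x, which sequesters actin monomers, was the most abundant RNA of platelets in both tables. It had 679 and 1050 per 10000, against 180 and 163 in other cells. In platelet barcodes without leukocyte RNA it had 867 and 1313 per 10000.

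Genes low in platelets were mostly those of leukocytes and of ribosomes. Cd74, the invariant chain of class II molecules, had log2 differences of -1.65 and -2.84, Lyz2, lysozyme of myeloid cells, -2.44 and -1.30, and Cst3, cystatin C, -1.73 and -1.63. Ribosomal protein RNA made up 2.94% of UMIs in metastasis-bearing and 2.64% in naive platelet barcodes without leukocyte RNA, against 5.05% in metastasis-bearing neutrophils and 36.9% in naive T or NK cells, the lowest and highest leukocyte types. Mitochondrial RNA was high, at 14.7% and 12.4%, against at most 5.03% in any of the 4 leukocyte types.

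Granule genes, in a list that also holds the calmodulin-binding Nrgn, were the group with the widest range. Of 19 members in the tables, 9 were at least 2-fold higher in metastasis-bearing platelet barcodes and 11 in naive ones, with 2 and 1 at least 2-fold lower, and the list medians were 0.95 and 1.37 on the log2 scale, beside -0.01 and -0.04 over all 16151 genes. Of all genes, 1.41% in the metastasis-bearing and 1.91% in the naive table were at least 2-fold higher in platelets, and 1.32% and 2.11% at least 2-fold lower. The same shares apply to the counts of the lists that follow. Most of the 16151 genes have few platelet UMIs and could not pass, and the lists were chosen as platelet genes, so nothing is read from the gap. Besides Nrgn, Pf4 and Ppbp the highest were Srgn, the core of granule proteoglycans (21.9 and 37.2 per 10000), Clu, the chaperone clusterin (16.0 and 21.1), Thbs1, thrombospondin (11.01 and 13.3), and the clotting proteins F5 (4.53 and 6.86) and Vwf (4.35 and 6.86). Srgn was shared with neutrophils, which had 40.4 and 37.0 per 10000. Ccl5, which human platelets store, was nearly absent, with 1 and 3 UMIs, and Selp, the P-selectin of granule membranes, had 2 UMIs in each table.

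Adhesion receptors had 16 and 15 of 20 members at least 2-fold higher and none 2-fold lower (medians 1.97 and 2.27). Cd9, a tetraspanin, led at 73.9 and 124 per 10000, followed by Itga2b, Clec1b, the podoplanin receptor CLEC-2 (15.8 and 30.3), and Gp9. Treml1, a granule-membrane receptor, had 6.20 and 10.9 per 10000, Itgb3, the partner of Itga2b, 5.73 and 5.51, and the collagen receptor Gp6 2.87 and 3.67. The other 3 subunits of the von Willebrand factor receptor were sparser than Gp9, Gp5 with 42 and 45 UMIs, Gp1ba with 22 and 15 and Gp1bb with 14 and 10. Cd36 had 0 UMIs in both tables, below a limit of 3 UMIs.

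Receptors for soluble agonists were present at low level. Of 13 members in the tables, 8 had a platelet UMI and 4 and 5 were at least 2-fold higher (medians 0.34 and 0.53). P2ry12, an ADP receptor that microglia also carry, had 33 and 47 UMIs, Slc6a4, the serotonin transporter, 26 and 34, and F2rl2, the thrombin receptor PAR3, 22 and 15. F2r, F2rl3, Tbxa2r, Ptger3 and Slc35d3 had 0 UMIs in both tables. F2rl3, the thrombin receptor PAR4 that mouse platelets signal through, was thus not detectable at this depth.

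Signalling genes were led by Gng11 (77.9 and 123 per 10000) and, lower, by Plek, pleckstrin (20.2 and 24.5), Rgs10 (16.9 and 28.5) and Rgs18 (5.27 and 10.4), both brakes on G protein signalling, and Alox12, platelet 12-lipoxygenase (12.3 and 12.9). Of 20 members 9 and 10 were at least 2-fold higher (medians 0.83 and 1.18). Lyn, Fyb and Syk, which leukocytes share, differed from other cells by no more than 0.63 on the log2 scale. In the cytoskeletal list, which also holds Ctla2a, 15 and 17 of 22 members were at least 2-fold higher (medians 1.33 and 1.36). Myl9, the myosin light chain, had 19.0 and 26.7 per 10000, Tpm4, tropomyosin 4, 13.6 and 17.97, and Tubb1, the tubulin of the platelet rim, 1.76 and 1.55. Actb and Pfn1 were abundant everywhere, with log2 differences of 0.88 and 1.07 for Actb and 0.09 and 0.21 for Pfn1.

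Megakaryocyte transcription factors summed to 9.43 UMIs per 10000 in metastasis-bearing platelets against 7.13 in other cells, and to 8.12 in naive platelets against 8.30. None of 13 members was 2-fold higher in the metastasis-bearing table and 2 were in the naive table, Nfe2 (log2 1.01, 18 UMIs) and Tal1 (1.20, 14 UMIs), with list medians of 0.18 and -0.01. Mef2c, also expressed by B cells and monocytes, had 41 and 7 UMIs (log2 0.38 and -1.48), and Fli1 17 and 25 UMIs. Gata1 had 3 and 5 UMIs and Gfi1b 4 and 3. Of 10 cell cycle genes 4 and 1 had any UMI, and none had more than 3. They summed to 0.647 per 10000 in metastasis-bearing platelets against 0.502 in other cells, and to 0.193 in naive platelets against 0.771.

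**Figure D3:**
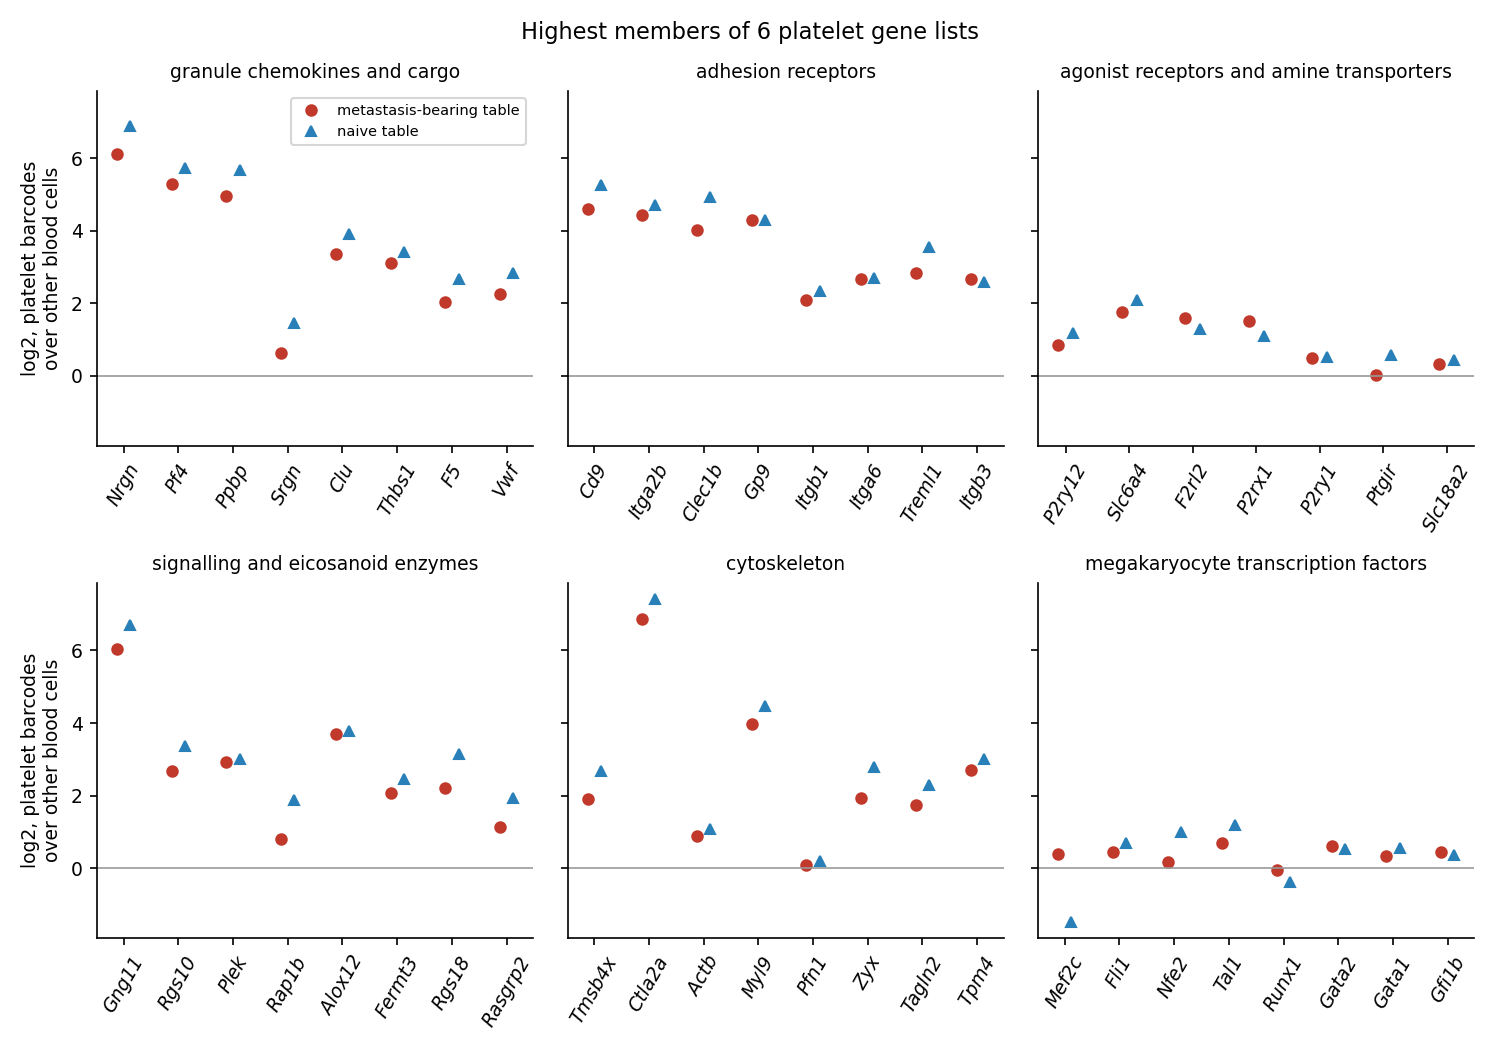
Log2 level of platelet barcodes over all other blood cells of the same table (1 UMI per 10000 added to each side) for up to 8 of the members with the highest platelet level in each of 6 lists, circles for the metastasis-bearing table and triangles for the naive table. The largest excess of the granule (Nrgn), adhesion (Cd9), signalling (Gng11) and cytoskeletal (Ctla2a) lists is 4.59 or above in both tables. Other members of these lists lie lower, down to Pfn1 at 0.09 and 0.21. Agonist receptors reach 2.09 at most, and transcription factors lie between -1.48 and 1.20.

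The list of interferon-induced genes had medians of -0.34 and -0.41 against all other blood cells, with none of 18 members 2-fold higher. Only 4 of the 18 had at least 20 platelet UMIs in each table. Ifitm3, an antiviral membrane protein, had 6.10 and 7.34 per 10000 in platelets against 21.5 and 16.0 in other cells. Neutrophils, with 13.01 and 16.98 per 10000, and monocytes, with 44.2 and 47.97, lay above platelets for Ifitm3. B cells, with 1.44 and 0.648, and T or NK cells, with 2.45 and 0.903, lay below them. Among class I genes B2m was higher in platelets (27.7 and 38.8 against 17.7 and 20.2 per 10000) and the list medians were -0.24 and -0.67. Immediate early genes had a median of 0.03 in the metastasis-bearing table, where 18 of 63 platelet barcodes held at least 20 Malat1 UMIs, and of -1.03 in the naive table, where 6 of 66 did. Their part in that list was not tested.

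Surface antibodies could describe platelets only in part, as the pool of 35 held 0 antibodies to CD41, CD42, CD61 or CD62P. The authors' gate for cells with CD11b but without Ly6C took 39 of 66 naive platelet barcodes (59.1%, interval 46.3 to 71.0) and 183 of 5297 other naive cells (3.45%). In the metastasis-bearing table the gate for low Ly6C took 28 of 63 platelet barcodes (44.4%, 31.9 to 57.5) and 326 of 5595 other cells (5.83%). The naive table has a gate of that name too, which took 2 of 66 platelet barcodes (3.03%, 0.369 to 10.52) and 292 of 5297 other cells (5.51%). How each gate was drawn is not given in the sources used here. The gate for NK1.1 took 16 of 63 metastasis-bearing platelet barcodes (25.4%) and 467 of 5595 other cells (8.35%), and the naive gate for NK cells 4 of 66 (6.06%) and 100 of 5297 (1.89%). The gate for B220, a B cell antigen, took 11 of 63 metastasis-bearing platelet barcodes (17.5%) and 1474 of 5595 other cells (26.3%), and 3 of 66 (4.55%) and 2049 of 5297 (38.7%) in the naive table. The gates for cKit, the stem cell factor receptor, took 7 of 63 metastasis-bearing and 13 of 66 naive platelet barcodes, against 82 of 5595 and 150 of 5297 other cells. The gate for Ly6C with Ly6G, which marks neutrophils, took 1 of 63 and 1 of 66 platelet barcodes, against 2090 of 5595 and 1535 of 5297 other cells.

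Metastasis-bearing Hom blood had the fewest platelet barcodes. They were 8 of 1945 clear cells in metastasis-bearing Hom (0.411%, interval 0.178 to 0.809), 34 of 2074 in metastasis-bearing Het (1.64%, 1.14 to 2.28), 22 of 1978 in naive Hom (1.11%, 0.698 to 1.68) and 29 of 1716 in naive Het (1.69%, 1.13 to 2.42). The intervals of metastasis-bearing Hom and metastasis-bearing Het did not overlap, and those of naive Hom and naive Het did. Between metastasis-bearing and naive blood the intervals overlapped in Hom and in Het. Over all deposited cells the shares were 0.431%, 1.72%, 0.943% and 1.56% in the same order of groups. All deposited barcodes had at least 501 UMIs, so fewer platelets and platelets with less RNA cannot be told apart, and with 1 hashed sample a group neither can genotype and the draw or staining of that sample.

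**Figure D4:**
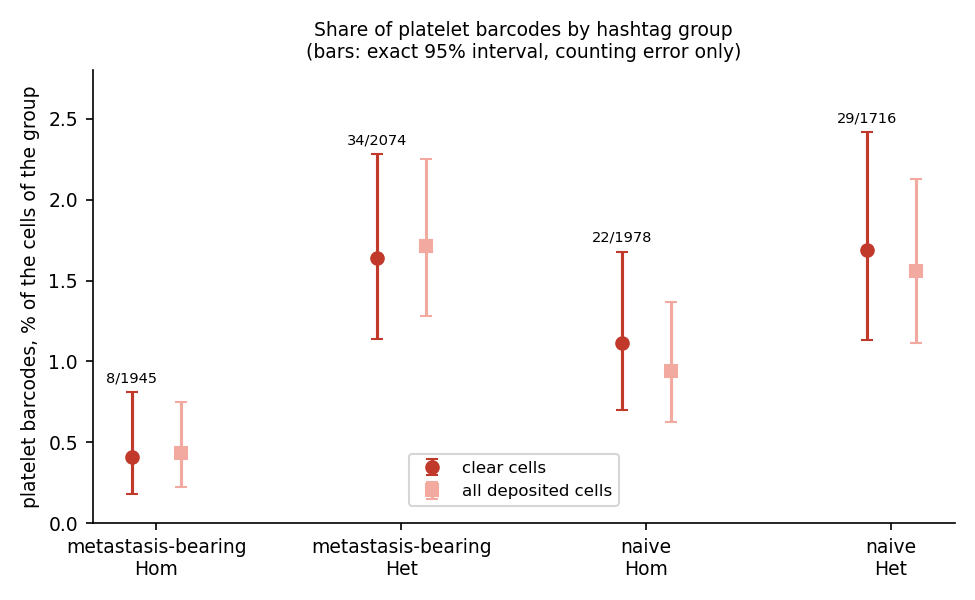
Share of cells that were platelet barcodes in each blood group (percent, vertical axis from 0) among clear cells (circles, counts printed above) and among all deposited cells (squares), with exact 95% Clopper-Pearson intervals. The metastasis-bearing Hom share of 0.411% lies below the 3 other groups, and the interval of metastasis-bearing Het starts above its end.

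Hashtag signal was weak on these barcodes, most of all in the group with the lowest share. Own-table hashtag counts on clear platelet barcodes had a median of 60.5 in metastasis-bearing Hom (30 to 246), 387 in metastasis-bearing Het (33 to 1104), 195.5 in naive Hom (34 to 1917) and 326 in naive Het (32 to 4741), while all clear cells of these groups had medians of 917, 612, 1514.5 and 968. If at least 80% of the hashtag counts had to be a table's own, 2 of 8, 29 of 34, 17 of 22 and 25 of 29 platelet barcodes stayed, against at least 98.4% of all clear cells. The metastasis-bearing Hom share was then 0.104% (2 of 1922 cells). How many platelets lost their group through the hashtag was not tested.

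Depth per platelet barcode was low in every group, with the highest median in metastasis-bearing Hom. Total UMIs had a median of 1116 in metastasis-bearing Hom (502 to 2397), 757 in metastasis-bearing Het (501 to 2667), 763 in naive Hom (538 to 2503) and 915 in naive Het (519 to 3556), against 3928.5 to 4709 for all clear cells. Summed over barcodes the groups held 9798, 29550, 21554 and 31395 UMIs. A gene was counted as different between 2 groups if it differed at least 2-fold, with 1 UMI per 10000 added to each side, and had at least 20 UMIs in the higher group. This is a rule of size and not a test.

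In metastasis-bearing blood, Hom platelets had higher levels of several platelet genes than Het platelets and lower levels of some immediate early and neutrophil genes. The summed Malat1 level was lower in Hom too, but 2 Het barcodes held most Het Malat1 UMIs, and over all deposited cells the log2 difference was 0.0094. Of 118 genes with enough UMIs, 7 (5.93%) were at least 2-fold higher in Hom and 24 (20.3%) at least 2-fold lower, 31 in all (26.3%). Over all deposited cells 18 were higher and 156 lower. With at least 80% of hashtag counts a table's own, which leaves 2 Hom barcodes, 0 were higher and 24 lower. Hom held fewer UMIs than Het, so a gene higher in Hom needed a higher level to enter. The higher and lower counts are therefore not set against each other. With 20 UMIs required in both groups together, 13.1% of 237 genes were at least 2-fold higher in Hom and 11.8% lower. Thbs1 had 42 UMIs in the 8 Hom barcodes and 34 in the 34 Het barcodes, or 42.9 against 11.5 per 10000 (log2 1.81, interval of the ratio 2.31 to 6.04). Every Hom barcode had a Thbs1 UMI, but 28 of the 42 came from 2 barcodes. Itga2b had 57.2 against 24.0 per 10000 (log2 1.22) and Pf4 208 against 120 (0.79). Esd, esterase D, and Lsm12, an RNA-binding protein, also passed the rule, with log2 values of 1.32 and 1.02.

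Over the platelet lists more members were higher than lower. Of 109 list members 46 had at least 20 UMIs in the 2 groups together, 10 of them were at least 2-fold higher in Hom and 0 lower, with a median of 0.42. Of all 237 genes with 20 UMIs in both groups together, 13.1% were at least 2-fold higher in Hom and 11.8% lower, with a median of 0.23. The 10 were Thbs1, Vwf, Itga2b, Itgb3, Itgb1, Rgs18, Lyn, Bin2, Tln1 and Ilk. Not every platelet gene was higher, as Nrgn had 121 against 119 per 10000 and Gp9 36.7 against 34.9.

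Some of the lower genes were held by few Het barcodes. Malat1 had 14 UMIs in Hom against 755 in Het (14.3 against 255 per 10000, log2 -4.07), but 627 of the 755 came from 2 Het barcodes with 423 and 204 UMIs, which held 9 and 6 platelet-marker UMIs and no called leukocyte lineage. The median per barcode was 1 UMI in Hom and 2 UMIs in Het. Immediate early genes summed to 17 UMIs in Hom and 315 in Het. Btg2 had 0 UMIs in Hom against 35 in Het, of which 26 were in 2 barcodes. Junb was spread more widely, with 0 UMIs in Hom against 43 in 20 Het barcodes, of which 20 were in 2. Over all deposited cells the log2 differences were -0.04 for Btg2 and -0.47 for Junb.

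Some neutrophil genes were lower in Hom platelets too. S100a9, a calcium-binding protein that neutrophils make in bulk, had 7 against 114 UMIs (log2 -2.28), and S100a8, its partner, 4 against 76 (-2.39), and 1 Het barcode held 62 of the 114 and 43 of the 76. The neutrophil marker list summed to 5 UMIs in Hom and 51 in Het, or 5.10 against 17.3 per 10000. Il1r2, Cxcr2, Mxd1 and Trem1 had 0 UMIs in both groups. Mmp8 and Hdc had UMIs in Het only, whereas Mmp9 had UMIs in Hom only. The part of this list was not tested. Without the 4 Het barcodes of at least 20 Malat1 UMIs and without barcodes carrying leukocyte RNA, 1 gene was higher and 9 lower in Hom. Junb, S100a8, S100a9, Thbs1, Tmsb10, Ttr and mt-Nd1 were kept.

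In naive blood, few genes differed 2-fold between Hom and Het platelets. Of 172 genes, 0 (0%) were at least 2-fold higher in Hom and 6 (3.49%) at least 2-fold lower. Uba7, the enzyme that activates the ubiquitin-like protein Isg15, had 4 UMIs in Hom against 25 in Het (log2 -1.65), and Aes, a corepressor, 9 against 35 (-1.23). Cd226, an adhesion receptor, and Prdx5, a peroxiredoxin, each had 7 against 26 (-1.13), and the other 2 were Flna and Mylk of the contractile machinery. None of the 6 passed with at least 40 UMIs required, and over all deposited cells 2 genes were higher and 90 lower, none of them among the 6. The 50 platelet list members with enough UMIs had a median of 0.01 beside -0.01 over all genes. Pf4 had 181 against 160 per 10000, Nrgn 185 against 184 and Itga2b 32.5 against 31.9, with overlapping intervals. Some genes were higher in Hom by less than 2-fold, with the ratio's interval above 1. These were led by Ttr (39.9 against 24.2 per 10000), B2m (55.2 against 36.3), Eif1 (56.1 against 37.3), Myl9 (36.2 against 23.9) and H2-D1 (22.7 against 13.7). The class I list summed to 85.4 against 58.3 per 10000 (interval of the ratio 1.19 to 1.81).

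Between metastasis-bearing and naive blood, the comparisons in Het and in Hom share no samples. In Het, 25 of 212 genes (11.8%) were at least 2-fold higher in metastasis-bearing platelets and 8 (3.77%) lower, 33 in all (15.6%). In Hom, 1 of 96 genes (1.04%) was higher and 9 (9.38%) lower, 10 in all (10.4%). Metastasis-bearing Hom held 9798 UMIs and naive Hom 21554, so a gene higher in metastasis-bearing Hom needed a higher level to enter. The higher genes in Het were led by Malat1 (755 against 29 UMIs), Tmx4 (24 against 0), Jund (46 against 7), Xist (23 against 2) and Btg2 (35 against 5), which are also high in the Malat1-rich barcodes. Without barcodes of at least 20 Malat1 UMIs, Xist was -0.21 on the log2 scale in place of 2.42. Without those and without leukocyte RNA, 6 genes were higher and 4 lower in Het.

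Rap1b was at least 2-fold lower in metastasis-bearing platelets in both genotypes, and no other gene of the 96 tested in both was. Rap1b, a small GTPase that switches on the integrin of Itga2b and Itgb3, had 9.19 UMIs per 10000 in metastasis-bearing Hom against 24.1 in naive Hom (9 against 52 UMIs, log2 -1.30, interval of the ratio 0.165 to 0.780). In Het it had 10.49 in metastasis-bearing against 23.9 in naive platelets (31 against 75 UMIs, log2 -1.12, 0.279 to 0.676). The intervals of both metastasis-bearing groups lay below those of both naive groups. Over all deposited cells the differences were -0.99 and -0.96, just short of 2-fold, and over all alternatives they ran between -1.59 and -0.99 in Hom and between -1.18 and -0.83 in Het.

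Smaller differences with the ratio's interval below 1 in both genotypes were found for 11 of the 96 genes, Rap1b included. Nrgn had 121 against 185 per 10000 in Hom (log2 -0.60) and 119 against 184 in Het (-0.62). Ctla2a had 302 against 372 in Hom and 292 against 352 in Het, Tmsb4x 1077 against 1317 and 958 against 1220, and Cd9 137 against 171 and 114 against 153. The others were S100a1, 1810058I24Rik, Hba-a1, Mmd, Eif1 and Fth1. Mmd, a membrane protein of macrophages, had 2 against 30 UMIs in Hom and 18 against 41 in Het. The interval lay above 1 in both for Hist1h1c, a linker histone, alone, at 29.6 against 16.7 and 26.7 against 18.2 per 10000. Each table was processed by itself by the authors, so table and metastasis cannot be told apart. Nrgn also counts among the platelet markers by which barcodes were chosen, with a limit of at least 3. Of clear metastasis-bearing platelet barcodes, 3 had 3 markers and 4 had 4, against 0 and 0 of clear naive ones. Median marker UMIs were 27 in metastasis-bearing Het against 42 in naive Het, but 60 in metastasis-bearing Hom against 44 in naive Hom. The part of this choice in the Nrgn difference was not tested.

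Some genes took opposite directions in the 2 genotypes. Thbs1 was higher in metastasis-bearing than in naive Hom platelets (42.9 against 12.5 per 10000) and lower in metastasis-bearing than in naive Het platelets (11.5 against 19.1). Actb, at 378 against 244 in Hom and 242 against 282 in Het, and Tsc22d1, at 106 against 72.8 and 61.3 against 83.5, did the same. Ttr, transthyretin, went the other way, lower in metastasis-bearing Hom (12.2 against 39.9) and higher in metastasis-bearing Het. Ttr is in none of the platelet lists and was the leading gene of an unnamed cluster in each table. These intervals excluded 1 in both genotypes, and the difference between genotypes was not tested. Pf4 was lower in metastasis-bearing than in naive Het platelets (120 against 160 per 10000), with the ratio's interval below 1, while in Hom it had 208 against 181 (interval of the ratio 0.967 to 1.37). Ppbp had 53.5 against 74.2 in Het and 51.0 against 62.6 in Hom, where the interval of the ratio, 0.577 to 1.13, includes 1. Pf4 and Ppbp, like Nrgn, count among the markers by which barcodes were chosen, and the part of that choice was not tested.

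**Figure D5:**
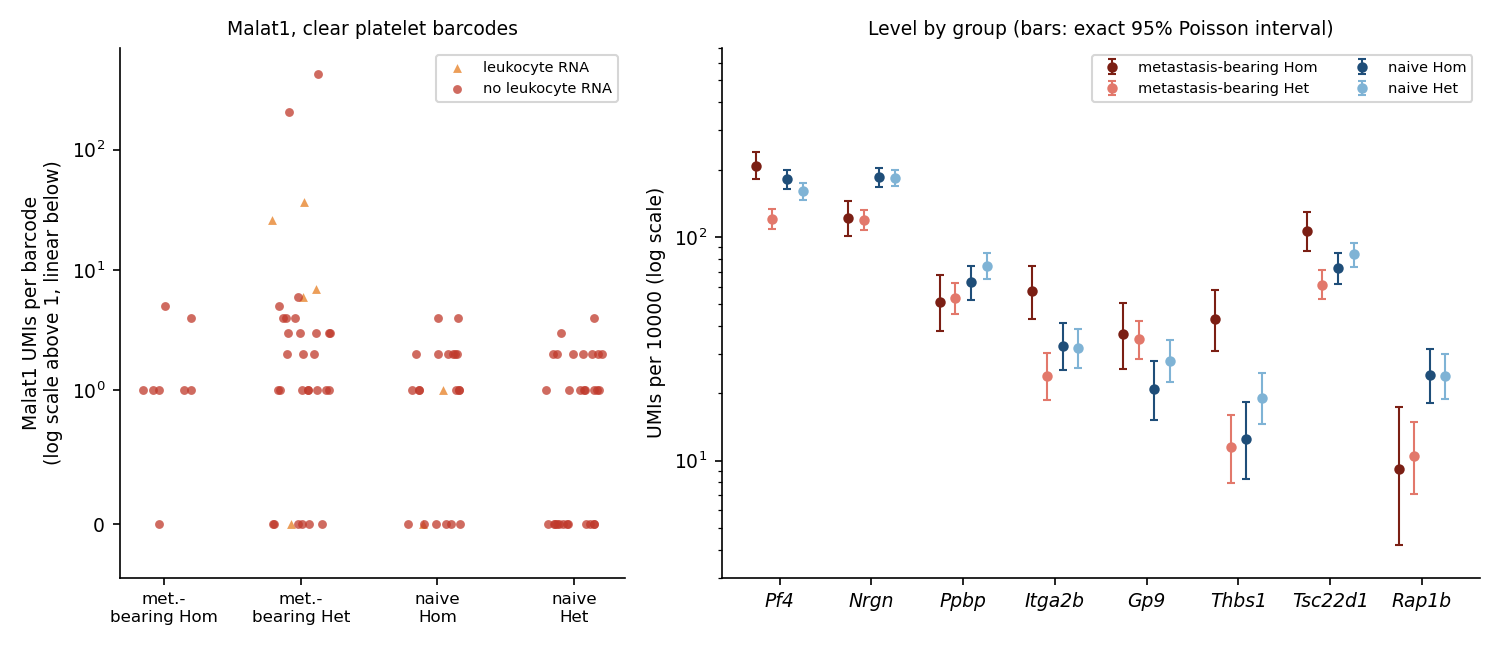
Left, Malat1 UMIs of each clear platelet barcode (log scale above 1) in the 4 blood groups, with triangles for barcodes carrying leukocyte RNA; right, level of 8 platelet genes (UMIs per 10000, log scale) with exact 95% Poisson intervals. Only metastasis-bearing Het has barcodes above 7 Malat1 UMIs, and Rap1b and Nrgn are lower in both metastasis-bearing groups.

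The receptors whose genes were altered in the series had few UMIs in platelets. Cx3cr1 had 2 UMIs in metastasis-bearing Hom (2.04 per 10000, interval 0.247 to 7.37), 11 in metastasis-bearing Het (3.72, 1.86 to 6.66), of which 8 were in 2 barcodes, 2 in naive Hom (0.928, 0.112 to 3.35) and 0 in naive Het platelets. Ccr2, and the reporter sequences EGFP and RFP that the tables list, had 0 UMIs in all 4 groups. The limit for 0, taken as 3 UMIs, was between 0.956 and 3.06 per 10000. Over all clear platelets Cx3cr1 had 3.30 per 10000 in the metastasis-bearing table (1.76 to 5.65), an interval that includes the 2.68 of other cells, and 0.378 in the naive table (0.0457 to 1.36), below the 3.55 of other cells. Neutrophils had 0.418 and 0.391 per 10000. Ccr2 had 5.06 per 10000 in other metastasis-bearing cells and 2.69 in other naive cells. At these counts platelet RNA gave no check of the genotype labels.

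Platelet RNA in turn was rare in leukocytes. At least 3 platelet markers stood in 26 of 3634 clear metastasis-bearing leukocyte barcodes (0.715%) and in 26 of 3251 naive ones (0.7998%). By group these were 0.68% in metastasis-bearing Hom, 0.75% in metastasis-bearing Het, 1.06% in naive Hom and 0.52% in naive Het, with overlapping intervals. Within 500 UMIs a barcode, 0 of 3634 and 2 of 3251 were left. The recovery of UMIs was incomplete above 8000 UMIs, where a median of 47.6% of detected genes was kept in the metastasis-bearing table, so platelet RNA in monocytes, with a median depth of 14270 UMIs there, is understated.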

How the data were processed

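Single-cell libraries were made with a droplet-based 3' assay from 1 pool of 8 hashed samples. Reads were processed with Cell Ranger 3.1 and mm10, per the submitters' processing notes. The deposited blood tables hold natural log (ln) values of 1 plus a count that the authors had corrected for depth, separately in each table, as the values themselves show. The correction adds molecules to shallow cells: naive members had a median of 793 genes above 0 in the table but 344 genes in the deposited cell descriptions, which also give raw counts (UMI, hashtag and antibody-tag totals), the authors' clusters, groups and antibody gates. UMIs were therefore recovered by fitting, gene by gene, the offset and step that the correction gives at each cell's deposited UMI total. Values were then rounded to whole UMIs. Enough shallow cells for a fit were found for 8798 of 16887 genes in the metastasis-bearing table and 8814 of 16462 in the naive table. The remaining genes took the median fitted values for the step and no offset. The deposited gene numbers were not used in the recovery and checked it, with a median of 342.5 recovered genes in naive platelet barcodes. In platelet barcodes the recovered UMIs were 100% of the deposited total at the median in the naive table (5th to 95th percentile 99.4 to 101.1%) and 100.3% in the metastasis-bearing table (99.1 to 102.8%). Recovery was also tested on simulated data. Corrected counts, as first planned, became an alternative.

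Levels are recovered UMIs summed over barcodes, per 10000. Genes named in the text are the 5 markers, up to 8 members per list with the highest platelet level, the 15 genes highest in platelets, 5 higher and 5 lower per comparison by the interval of the ratio (apart from globin, antigen receptor, Gm, Rik, mitochondrial and ribosomal genes), and Cx3cr1, Ccr2, EGFP and RFP. Genes named beyond these were chosen after their values were seen, among them Selp, Ccl5, Cd36, the genes of the barcodes with under 3 markers and those of the agreement between genotypes. Members and lists were chosen with earlier results of these data known. Alternatives changed the cells, minimum counts, pseudocount, hashtag limit and marker limit. No doublet caller was run. One list member that the rule names is not reported here. Python 3.11.15, numpy 2.4.6, scipy 1.17.1, pandas 2.3.3 and matplotlib 3.10.9 were used.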

Additional observations from a re-analysis of the deposited data

How the results depend on the processing

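Of 112 alternative values of the shares, gene counts and all-list medians, 71 stayed within the limits set and 41 did not. Of 684 for single lists and genes, 549 stayed, 130 moved and 5 reversed. No paired analysis was possible because each group was 1 hashed sample without replicate numbers, and no replicate could be left out. Using corrected counts, Malat1 limits, all of cluster 6, the 80% hashtag limit for genes, and leaving out platelet barcodes of both blood tables were alternatives chosen after seeing the data. With 80% own hashtags the metastasis-bearing Hom share was 0.104%, and metastasis-bearing over naive Hom gave 26 genes and a list median of -0.37. Leukocyte RNA was found in 44.4% of metastasis-bearing and 36.4% of naive platelet barcodes with 2 markers, in 11.9% and 3.92% of clear ones, in 93.7% and 93.9% by corrected counts, and, metastasis-bearing only, in 12.7% after thinning and 55.6% of all cluster 6. Platelet RNA was found in 1.43% of metastasis-bearing and 1.75% of naive leukocytes with 2 markers, 0.413% and 0.400% with 4, 0% and 0.0615% after thinning, and 1.34% and 1.45% of all deposited cells. Platelet list medians over other cells were 1.98 and 2.24 with a pseudocount of 0.1, and 1.54 in metastasis-bearing barcodes under 20 Malat1 UMIs. Gene counts for metastasis-bearing Hom over Het, naive Hom over Het, metastasis-bearing over naive Het and metastasis-bearing over naive Hom were 104, 38, 87 and 44 with 10 UMIs required, 11, 0, 11 and 5 with 40, and 82, 32, 74 and 66 by corrected counts. Over all deposited cells they were 174 for metastasis-bearing Hom over Het, 92 for naive Hom over Het and 37 for metastasis-bearing over naive Hom. Under 20 Malat1 UMIs metastasis-bearing Hom over Het and metastasis-bearing over naive Het gave 16 and 18, and also without leukocyte RNA 10 and 10. Reversed were the interferon list in metastasis-bearing Hom over Het (-1.49 over all deposited cells, -0.39 by corrected counts), Malat1 there (0.0094 over all deposited cells), and Xist in metastasis-bearing over naive Het (-0.21 under 20 Malat1 UMIs, -0.15 also without leukocyte RNA). The causes were not tested. Depth limits genes with few UMIs, above all in the 9798 UMIs of metastasis-bearing Hom.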
